A study of Mus musculus with 6 samples.

Results

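The 40 interferon-stimulated genes described here were chosen by symbol from the count table, as genes whose transcription is known to be induced by interferons. They were examined in kidney cortex of male C57BL/6 mice 1 day after surgery. The congested IRI group carried ischaemia-reperfusion injury (IRI) together with renal congestion (treatment label "IRI with IVCC"), and the IRI group carried the injury alone, so both groups had injured kidneys and neither was an uninjured control. Each group had 3 libraries, numbered 1 to 3 in both groups. The labels do not say whether these came from separate animals, so p-values measure the spread between libraries, which may be partly technical. All 40 genes were found among 26971 features, 39 by the listed symbol and Ddx58 under its current symbol Rigi, and 37 of them passed the filter of at least 10 counts in at least 3 libraries that left 14398 genes for testing. Oas3, Mx1 and Mx2 did not pass. The comparison asks whether added congestion shifted the interferon programme of the injured kidney.

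Interferons are secreted proteins that cells release on sensing viral or displaced self nucleic acid. Type I interferons act through the IFNAR receptor, JAK kinases and a transcription factor complex containing STAT2 and IRF9 that binds the interferon-stimulated response element (ISRE) in target promoters. Interferon gamma acts through its own receptor and the gamma-activated site (GAS). The targets include nucleic acid sensors, transcription factors that extend the response, and effectors that block viral RNA, translation or intracellular parasites, and resident kidney cells as well as infiltrating leukocytes can express them. In bulk cortex, fewer cells expressing a gene and less RNA per cell cannot be told apart.

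No interferon-stimulated gene passed the test for a difference between congested IRI and IRI kidneys. With edgeR's quasi-likelihood test and Benjamini-Hochberg adjustment over all genes, 0 of 37 members were called at an adjusted p of 0.05, and the smallest adjusted p among them was 0.935. The background was also 0%, since 0 of 14398 genes were called, so the members' count equalled it. DESeq2 and limma-voom also called 0 members, with and without the replicate block, and of all genes only DESeq2 with the block called any, 8 genes. At an unadjusted p under 0.05, 0 members passed against 288 genes (2%). Once replicate number was added to edgeR's model as a block, the counts called were again 0 members and 0 genes (0%). The unadjusted counts of that edgeR fit were 0 members and 1015 genes (7.05%). The other methods with the block did put members under the unadjusted threshold. DESeq2 gave 1 member, Gbp7, and 981 genes, and limma-voom gave 2 members, Isg15 among them, and 1059 genes.

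The point estimates lay more often above than below 0. Of the 37 members, 27 had a higher and 10 a lower fitted level in congested IRI than in IRI libraries (73% higher), whereas 49.7% of all tested genes were higher. The median log2 fold change was 0.12 over the members, against -0.0043 over all genes. With the replicate block these became 27 and 10 members and a median of 0.13, against 50.7% of all genes higher and a median of 0.0062. Single libraries weighed on this split. Without IRI replicate 3 it was 19 above and 18 below 0, with a median of 0.036, and without congested IRI replicate 2 it was 21 above and 16 below, with a median of 0.025. Members are not independent of each other, and these shares carry no test. The 95% interval of the log2 fold change lay wholly within a 2-fold difference for 17 of 37 members (45.9%, against 49.6% of all genes). With the block it did so for 27 of 37 members (73%, against 68.5% of all genes). For the remaining members a difference of 2-fold in at least 1 direction lay inside the interval.

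**Figure D1:**
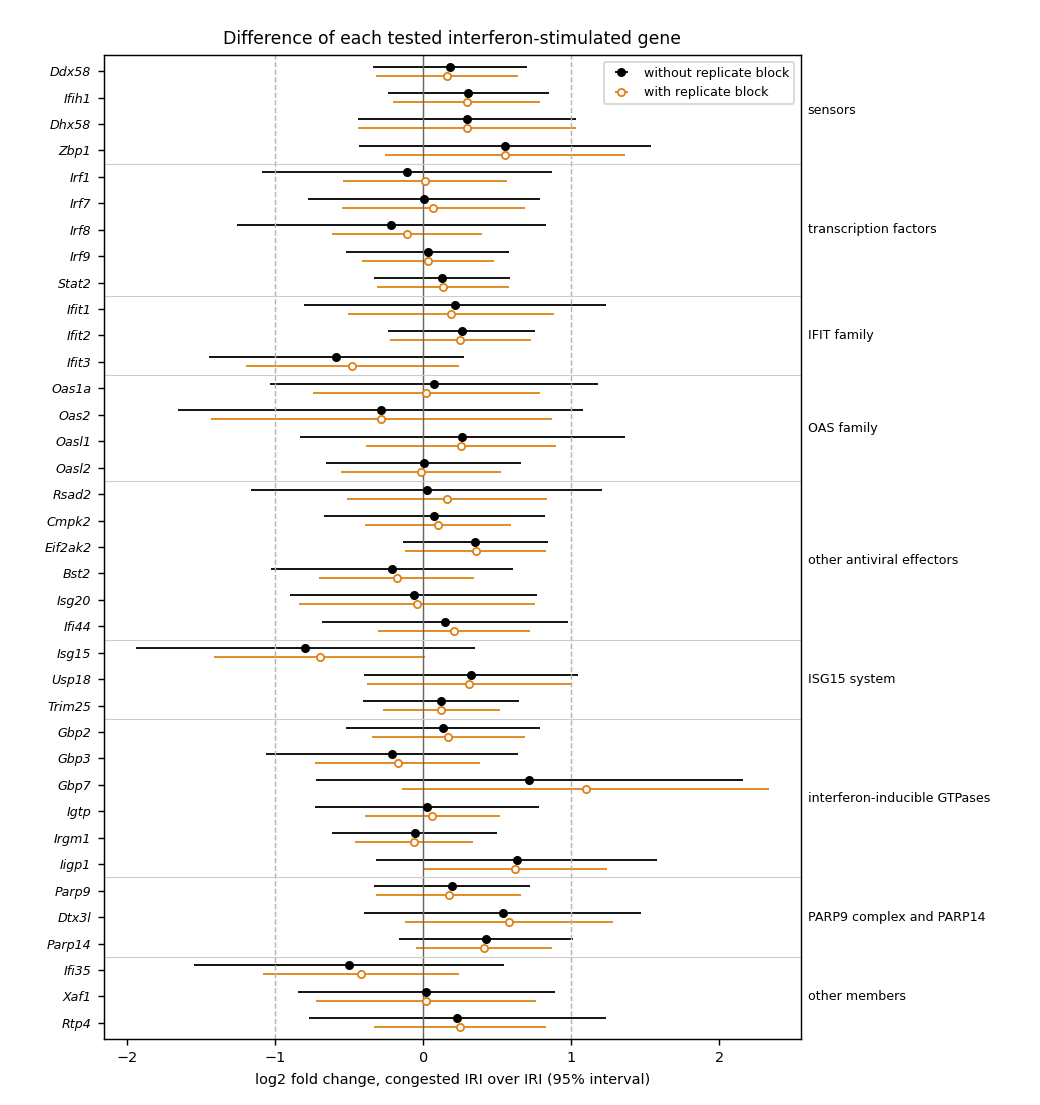
Log2 fold change of congested IRI over IRI for each of the 37 tested members, with its 95% interval, fitted without (filled black) and with (open orange) the replicate number as a block, grouped by role. Dashed lines mark a 2-fold difference; the estimates run from -0.80 for Isg15 to 0.71 for Gbp7 without the block, and every interval without it spans 0.

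Summed over the 40 members, the level was 673, 662 and 524 CPM (read counts scaled to library size with TMM factors) in congested IRI replicates 1, 2 and 3, against 603, 624 and 547 CPM in IRI replicates 1, 2 and 3. The means were 619.7 ± 83.3 CPM and 591.2 ± 39.7 CPM (SD, n = 3 each). The groups overlapped, and congested IRI replicate 3 had the lowest sum of the 6 libraries. The members took between 0.0530% and 0.0704% of a library's counts, and the libraries held 10865860 to 14350425 counts each. At these depths a gene with no count in a library could still be present at up to 0.219 to 0.269 CPM, the level of 3 counts, which covers counting error only.

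The members spanned a wide range of levels. Per kilobase of annotated exon, which allows genes to be compared, Bst2, Trim25 and Ifit3 stood highest by the mean over all 6 libraries. Bst2 averaged 14.9 CPM per kilobase in congested IRI libraries and 17.2 in IRI libraries, Trim25 averaged 16.4 in congested IRI and 15.1 in IRI libraries, and Ifit3 averaged 12.2 in congested IRI and 18.3 in IRI libraries. These 3 did not keep 1 order in both groups. Irgm1 was next by the mean over all 6 libraries, at 12.2 CPM per kilobase in congested IRI and 12.7 in IRI libraries. In IRI libraries alone Ifi35 stood above it, averaging 9.30 CPM per kilobase in congested IRI and 13.1 in IRI libraries. Below Oas2 stood the 3 genes that failed the filter, between 0.0803 and 0.172 CPM per kilobase over all libraries. On the CPM scale the median member averaged 12.7, 23 of 40 averaged 10 or more, and 3 averaged under 1.

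**Figure D2:**
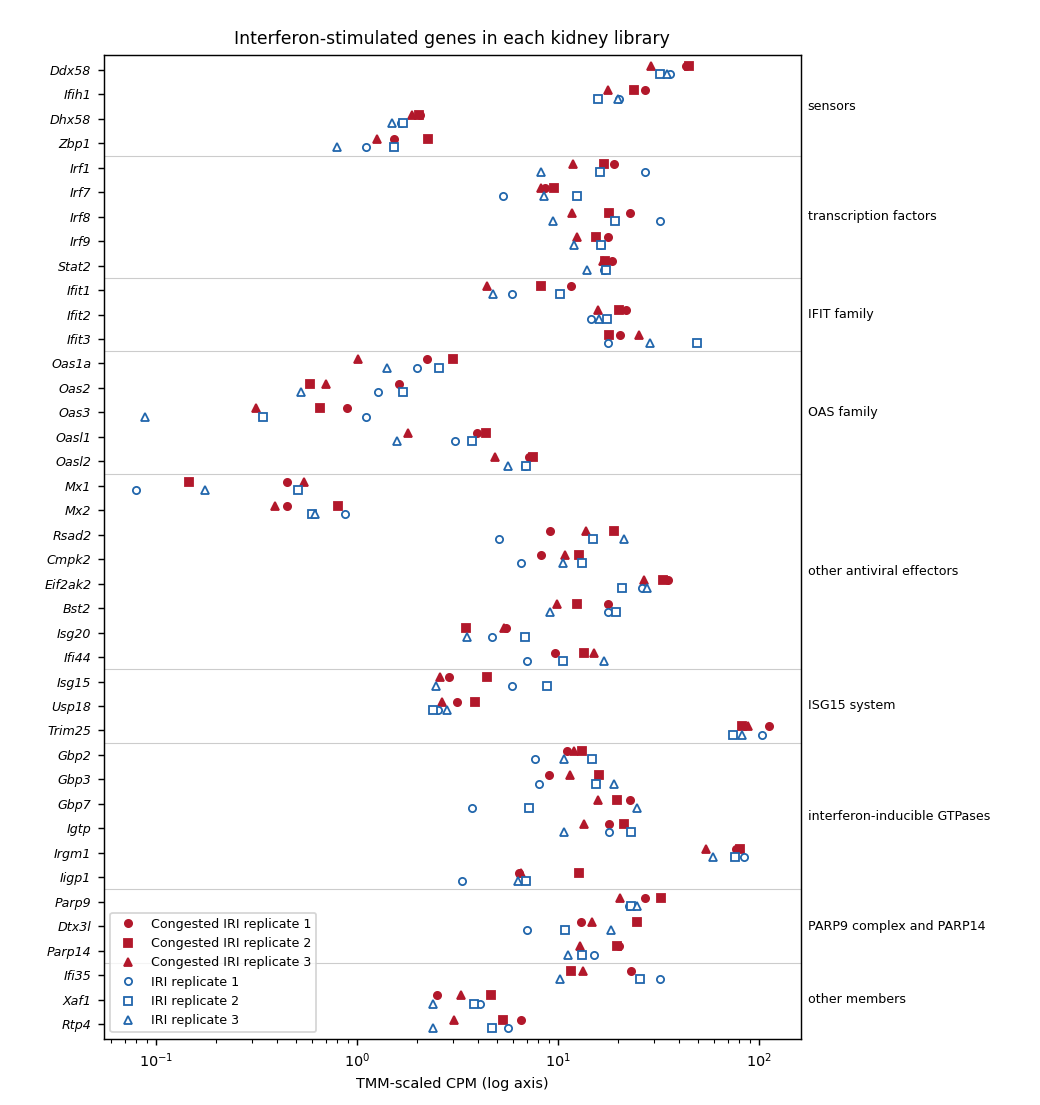
TMM-scaled CPM (log axis) of each of the 40 members in each library, with congested IRI libraries as filled red and IRI libraries as open blue symbols, and the replicate number given by the symbol's shape. Dhx58 is the one tested member whose congested IRI libraries all lie above its IRI libraries.

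A feature shared by many members, independent of their counts, lay in their promoters. RefSeq promoter windows (GRCm38.p6, 250 bases before to 50 after the annotated start) were found for 30 of the 40 members. The ISRE core (GAAA, any 2 bases, GAAA), searched on both strands, stood in 16 of them (53.3%), against 1079 of 27025 genes with a window (3.99%). The GAS letters TTCNNNGAA, also searched on both strands, stood in 10 members (33.3%) against 9.55% of genes, and both motifs stood in 5 members (16.7%) against 0.614%. Overlapping matches were kept, and in Bst2 a GAS match overlaps an ISRE core in part. These are matches of letters, not measured binding. The 200 bases before the start are printed for 4 members whose estimates ran in different directions, Isg15 and Ifit3 below 0 and Ifit1 and Gbp7 above it, each 5′ to 3′ in the direction of the gene, with the ISRE core letters on either strand in capitals. The windows are chr4:156200819-156201018 (minus strand) for Isg15, chr19:34583329-34583528 (plus) for Ifit3, chr19:34640689-34640888 (plus) for Ifit1 and chr3:142530136-142530335 (plus) for Gbp7.
Isg15: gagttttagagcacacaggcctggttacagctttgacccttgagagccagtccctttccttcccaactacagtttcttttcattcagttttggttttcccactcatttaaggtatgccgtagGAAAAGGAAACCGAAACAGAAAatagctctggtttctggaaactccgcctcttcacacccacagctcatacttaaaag
Ifit3: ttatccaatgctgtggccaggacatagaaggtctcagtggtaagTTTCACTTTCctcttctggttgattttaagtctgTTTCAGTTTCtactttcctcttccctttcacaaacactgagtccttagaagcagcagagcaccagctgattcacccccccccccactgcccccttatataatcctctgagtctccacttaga
Ifit1: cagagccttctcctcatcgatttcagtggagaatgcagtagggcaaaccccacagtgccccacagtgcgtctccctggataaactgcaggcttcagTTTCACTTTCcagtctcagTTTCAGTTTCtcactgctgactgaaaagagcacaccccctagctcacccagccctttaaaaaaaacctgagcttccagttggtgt
Gbp7: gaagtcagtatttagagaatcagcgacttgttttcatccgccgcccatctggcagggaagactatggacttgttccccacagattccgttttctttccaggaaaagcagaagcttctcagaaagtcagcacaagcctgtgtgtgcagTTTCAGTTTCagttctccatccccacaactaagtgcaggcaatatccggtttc

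In Isg15 3 overlapping ISRE cores formed 1 run from base -78 to base -57 before the start. Ifit3 held separate cores beginning at bases -156 and -122, and Ifit1 at bases -104 and -85. The Ifit3 and Ifit1 cores had the same letters in the same order, TTTCACTTTC and then TTTCAGTTTC. Gbp7 held a single core beginning at base -53 and GAS letters beginning at bases -106 and -87. Of the tested members with an ISRE core in the window, 10 of 15 had an estimate above 0, with a median log2 fold change of 0.072, and of those with a window lacking it 10 of 14 did, with a median of 0.026. Of the 8 tested members for which no window was found, 7 had an estimate above 0, with a median of 0.31. Most estimates were above 0 whether or not the window held the core.

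All 4 sensors had estimates above 0, with a median log2 fold change of 0.30. Dhx58, which encodes LGP2, a regulator of the other RIG-I-like receptors, was the only member whose groups did not overlap. It had 2.06, 2.05 and 1.88 CPM in congested IRI replicates 1, 2 and 3, against 1.67, 1.70 and 1.499 CPM in IRI replicates 1, 2 and 3. Every congested IRI library lay above every IRI library, in the way that 3.4% of all tested genes did, and 0 members lay the other way, against 3.1% of all genes. At 1 of 37, the members were near that background. The log2 fold change of Dhx58 was 0.30 ± 0.32 (SE), with an adjusted p of 0.935 by edgeR's quasi-likelihood test.

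Zbp1 encodes a sensor of Z-form nucleic acids that can start necroptosis. It had 1.52, 2.27 and 1.25 CPM in congested IRI libraries, against 1.11, 1.53 and 0.793 CPM in IRI libraries. Replicate by replicate the congested IRI library was the higher one, but the groups overlapped, and the log2 fold change was 0.55 ± 0.42 (adjusted p = 0.935, edgeR). Ddx58, which encodes the RNA sensor RIG-I, had 43.5, 45.1 and 29.0 CPM in congested IRI libraries, against 36.3, 32.3 and 35.1 CPM in IRI libraries. Congested IRI replicates 1 and 2 were its highest libraries and congested IRI replicate 3 its lowest. Ifih1, which encodes MDA5, a sensor of long double-stranded RNA, had 27.1, 23.9 and 17.8 CPM in congested IRI libraries, against 20.1, 15.8 and 19.8 CPM in IRI libraries. Congested IRI replicates 1 and 2 were again highest, while IRI replicate 2 was lowest, and the log2 fold change was 0.30 ± 0.23.

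The transcription factors were centred on 0, with 3 of 5 estimates above it and a median log2 fold change of 0.0015. Irf8, a factor best known from myeloid cells, had 22.7, 18.0 and 11.7 CPM in congested IRI replicates 1, 2 and 3, against 32.1, 19.3 and 9.52 CPM in IRI replicates 1, 2 and 3. Replicate 1 was highest and replicate 3 lowest in both groups, and the ranges overlapped. Its difference between groups was -0.22 ± 0.45 on the log2 scale. Stat2, part of the complex that binds the ISRE, was steadier, with 18.7, 17.1 and 16.8 CPM in congested IRI libraries and 16.9, 17.3 and 13.9 CPM in IRI libraries. Irf9, which completes that complex, averaged 15.3 ± 2.65 CPM in congested IRI and 15.0 ± 2.49 CPM in IRI libraries (SD, n = 3 each). Irf7, which amplifies type I interferon production, averaged 8.80 ± 0.697 and 8.80 ± 3.61 CPM in the congested IRI and IRI groups, with a spread that was wider in IRI libraries. Irf1, an early target of interferon gamma, averaged 16.0 ± 3.68 CPM in congested IRI and 17.2 ± 9.50 CPM in IRI libraries.

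The IFIT genes lie together on chromosome 19 and encode proteins that bind foreign RNA and block its translation. Their estimates differed in sign. Ifit3 had 20.4, 18.0 and 25.2 CPM in congested IRI replicates 1, 2 and 3, against 17.7, 49.2 and 28.7 CPM in IRI replicates 1, 2 and 3. IRI replicate 2 stood above every other library, and the remaining 5 lay between 17.7 and 28.7 CPM. The log2 fold change was -0.59 ± 0.37 (adjusted p = 0.935, edgeR), and without replicate 2 in both groups it was -0.024. Ifit3 has a near-identical copy, Ifit3b, and since no source used here says how reads fitting both were counted, its level is uncertain. Ifit1 averaged 8.12 ± 3.59 CPM in congested IRI and 7.01 ± 2.92 CPM in IRI libraries, and Ifit2 averaged 19.3 ± 3.11 CPM in congested IRI and 16.1 ± 1.48 CPM in IRI libraries (SD, n = 3 each). Ifit1 and Ifit2 had estimates above 0, at 0.21 and 0.26, while Ifit3 lay below. Thus Ifit1 and Ifit3, which hold the same ISRE letters, gave estimates of opposite sign with overlapping intervals.

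The oligoadenylate synthetase (OAS) genes, whose enzymes make the messenger that activates RNase L, were among the lowest members. Oasl2 had 7.17, 7.53 and 4.86 CPM in congested IRI libraries, against 6.90, 6.99 and 5.64 CPM in IRI libraries, and its log2 fold change of 0.00096 ± 0.28 put the groups at the same level within that error. That sign is arbitrary, since other scalings and the replicate block turn it. Oasl1, a relative known in mice to restrain Irf7 translation, had 3.94, 4.39 and 1.80 CPM in congested IRI libraries, against 3.09, 3.75 and 1.59 CPM in IRI libraries. Replicate 3 was the low one in both groups, and within every replicate number the congested IRI library was slightly higher. Oas1a averaged 2.08 ± 0.998 CPM in congested IRI and 1.98 ± 0.573 CPM in IRI libraries, and Oas2 averaged 0.967 ± 0.562 CPM in congested IRI and 1.17 ± 0.594 CPM in IRI libraries. Oas3 had 10, 9 and 4 counts in congested IRI libraries and 14, 4 and 1 in IRI libraries. Oas1a belongs to a family of close copies, and its counts are uncertain for the same reason as those of Ifit3.

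Of the other antiviral effectors, Eif2ak2 had the smallest p. It encodes PKR, the kinase that halts translation on meeting double-stranded RNA. It had 35.5, 33.4 and 26.9 CPM in congested IRI replicates 1, 2 and 3, against 26.3, 21.0 and 27.9 CPM in IRI replicates 1, 2 and 3. Congested IRI replicates 1 and 2 lay above all IRI libraries and congested IRI replicate 3 lay among them. The log2 fold change was 0.35 ± 0.21, with an unadjusted p of 0.136 and an adjusted p of 0.935 by edgeR's quasi-likelihood test. Rsad2, which encodes viperin, and Cmpk2, a mitochondrial nucleotide kinase, are neighbours on chromosome 12. Rsad2 averaged 14.0 ± 4.94 CPM in congested IRI and 13.8 ± 8.23 CPM in IRI libraries, and Cmpk2 averaged 10.6 ± 2.29 and 10.1 ± 3.33 CPM in the congested IRI and IRI groups. Both were lowest in replicate 1 of each group. Ifi44, an interferon-induced cytoplasmic protein, averaged 12.8 ± 2.82 CPM in congested IRI and 11.5 ± 5.05 CPM in IRI libraries. Bst2 (tetherin, which holds budding virions at the cell surface) averaged 13.4 ± 4.02 CPM in congested IRI and 15.5 ± 5.55 CPM in IRI libraries, and Isg20, an exonuclease, averaged 4.82 ± 1.14 CPM in congested IRI and 5.04 ± 1.72 CPM in IRI libraries.

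The Mx genes, dynamin-like GTPases that block incoming viruses, were nearly undetected. Mx1 had 5, 2 and 7 counts in congested IRI libraries, against 1, 6 and 2 counts in IRI libraries. Mx2 had 5, 11 and 5 counts in congested IRI libraries, against 11, 7 and 7 in IRI libraries. A difference of either gene was not detectable at this depth. GENCODE annotates Mx2 as a polymorphic pseudogene, and laboratory mouse strains including C57BL/6 are known to carry defective Mx genes.

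The ISG15 system conjugates a ubiquitin-like protein to targets during the response, and it held the member with the lowest estimate. Isg15, the modifier itself, had 2.87, 4.46 and 2.58 CPM in congested IRI replicates 1, 2 and 3, against 5.95, 8.86 and 2.47 CPM in IRI replicates 1, 2 and 3. In replicates 1 and 2 the congested IRI library was the lower one, while IRI replicate 3 was the lowest of all 6 libraries. The log2 fold change was -0.80 ± 0.49 (adjusted p = 0.935, edgeR's quasi-likelihood test), and the 95% interval ran from -1.94 to 0.35. With the replicate block it was -0.70 ± 0.31 (unadjusted p = 0.0535, adjusted p = 0.578, same test), with an interval from -1.41 to 0.013. In fits without the block, leaving out IRI replicate 3 gave -1.16, and leaving out IRI replicate 2 gave -0.35. Usp18, the protease that removes ISG15 and damps the type I receptor, had an estimate on the other side of 0, averaging 3.22 ± 0.610 CPM in congested IRI and 2.58 ± 0.221 CPM in IRI libraries (SD, n = 3 each). Trim25, the ubiquitin ligase that activates RIG-I, was the most abundant member by CPM. It had 113, 82.5 and 88.4 CPM in congested IRI libraries, against 104, 74.1 and 82.96 CPM in IRI libraries. The congested IRI library was slightly higher within every replicate number, by a fitted log2 fold change of 0.12 ± 0.23.

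The interferon-inducible GTPases, which attack the vacuoles of intracellular pathogens, included the highest estimate. Gbp7 was outside the rule for naming genes and was singled out after its values were seen. It had 22.7, 19.7 and 15.8 CPM in congested IRI replicates 1, 2 and 3, against 3.73, 7.16 and 24.7 CPM in IRI replicates 1, 2 and 3. Values were alike in the congested IRI group, whereas the IRI libraries ran from the lowest to the highest value of the 6. Its log2 fold change was 0.71 ± 0.62 without the block and 1.10 ± 0.54 with it, with edgeR adjusted p of 0.935 and 0.578. Without IRI replicate 3 its unadjusted p was 0.0021 and its adjusted p 0.168, both by edgeR. That fit drops the library with the highest Gbp7 value, so its small p is no evidence of a difference. In the same fit 2704 of 14398 genes had an unadjusted p under 0.05. Iigp1, an immunity-related GTPase, had 6.45, 12.7 and 6.58 CPM in congested IRI libraries, against 3.33, 6.99 and 6.35 CPM in IRI libraries. The congested IRI library was higher within every replicate number, but only slightly in replicate 3. The log2 fold change was 0.63 ± 0.41 (adjusted p = 0.935) without the block and 0.62 ± 0.27 (unadjusted p = 0.0504, adjusted p = 0.578) with it, by edgeR's quasi-likelihood test.

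Irgm1, which regulates the other immunity-related GTPases, had 76.9, 80.5 and 54.4 CPM in congested IRI libraries, against 84.9, 76.5 and 59.2 CPM in IRI libraries. Its groups covered much the same range, with a log2 fold change of -0.058 ± 0.24 that became 0.053 when libraries were scaled by total counts alone. Igtp, of the same family, averaged 17.6 ± 3.95 CPM in congested IRI and 17.3 ± 6.28 CPM in IRI libraries. The guanylate-binding proteins Gbp2 and Gbp3 averaged 12.1 ± 1.03 and 12.2 ± 3.57 CPM in congested IRI libraries, against 11.1 ± 3.53 and 14.2 ± 5.55 CPM in IRI libraries (SD, n = 3 each). Gbp2, Gbp3 and Gbp7 stand in 1 cluster of related genes on chromosome 3, and no source used here says how reads shared among them were counted.

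Parp9, Dtx3l and Parp14, which lie side by side on chromosome 16, all had estimates above 0, with a median log2 fold change of 0.42. Parp9 and Dtx3l encode partners of 1 ADP-ribosylation and ubiquitin ligase complex. Parp14, a mono-ADP-ribosyltransferase, had 20.2, 19.8 and 12.9 CPM in congested IRI libraries, against 15.1, 13.2 and 11.2 CPM in IRI libraries. Each congested IRI library exceeded the IRI library of its number, while congested IRI replicate 3 lay below IRI replicates 1 and 2. Its log2 fold change of 0.42 ± 0.25 had an adjusted p of 0.935 by edgeR's quasi-likelihood test. The unadjusted p of 0.135 was the smallest of any member in that fit, which was without the replicate block. Parp9 had 27.1, 32.8 and 20.4 CPM in congested IRI libraries, against 22.5, 23.1 and 24.7 CPM in IRI libraries. Congested IRI replicates 1 and 2 were its highest libraries and congested IRI replicate 3 its lowest, as for Ddx58. Dtx3l averaged 17.5 ± 6.29 CPM in congested IRI and 12.1 ± 5.73 CPM in IRI libraries, a log2 fold change of 0.53 ± 0.40. The annotated spans of Parp9 and Dtx3l overlap by 682 bases on opposite strands, and without a stated strand setting reads from that stretch cannot be told apart.

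Among the remaining members, Ifi35, whose product binds the NMI protein, had 23.1, 11.7 and 13.4 CPM in congested IRI libraries, against 32.3, 25.6 and 10.2 CPM in IRI libraries. The IRI libraries again held the highest and the lowest value. The log2 fold change was -0.50 ± 0.45. Xaf1, a proapoptotic factor, averaged 3.49 ± 1.10 CPM in congested IRI and 3.45 ± 0.935 CPM in IRI libraries, and Rtp4, a Golgi chaperone of receptors, averaged 4.98 ± 1.77 and 4.23 ± 1.67 CPM in the congested IRI and IRI groups (SD, n = 3 each).

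The members' differences were also taken within replicate numbers, and their size varied from number to number. The median log2 CPM difference, congested IRI minus IRI, was 0.27 in replicate 1 with 29 of 37 members higher, 0.15 in replicate 2 with 23 higher, and 0.051 in replicate 3 with 20 higher. Over all genes tested the medians were 0.0047, 0.0077 and -0.0015. Congested IRI was higher within all 3 replicate numbers for 7 members, Dhx58, Zbp1, Oasl1, Trim25, Iigp1, Parp14 and Rtp4, and lower within all 3 for 0 members. In all genes tested the shares were 13.1% higher and 13.1% lower. Congested IRI replicates 1, 2 and 3 were the highest library for 10, 10 and 0 of the 37 members, against 4, 9 and 4 for IRI replicates 1, 2 and 3. They were the lowest library for 0, 1 and 6 members, against 11, 4 and 15 for the IRI replicates. These counts of highest and lowest libraries were not taken over all genes, so whether they are particular to the members cannot be told.

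**Figure D3:**
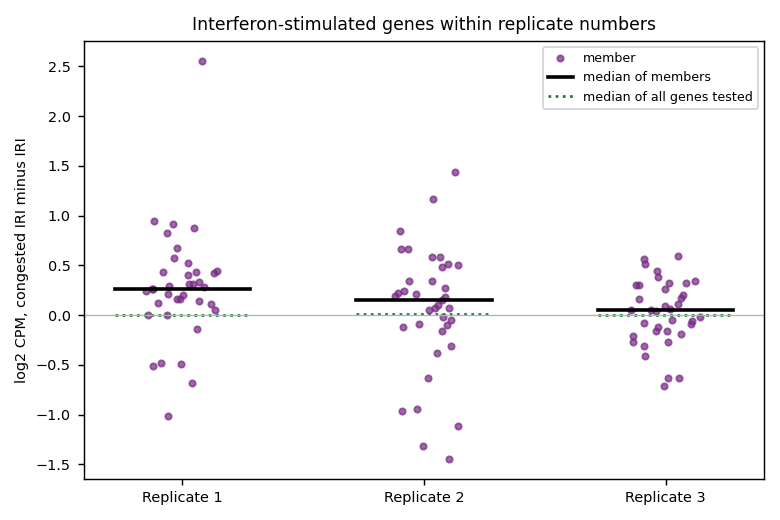
Difference in log2 CPM between the congested IRI and the IRI library of the same replicate number, 1 point per tested member, with the median of the members (black) and of all genes tested (dotted green). The medians of the members are 0.27, 0.15 and 0.051 in replicates 1, 2 and 3, and the highest point in replicate 1 is Gbp7.

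Members were also compared between replicate numbers. In the model with group and replicate number, 1144 genes (7.95%) differed between the numbers at an adjusted p of 0.05 by edgeR's quasi-likelihood test, and of the members 1 of 37 did (2.7%), Irf8, at an adjusted p of 0.0467. DESeq2 called 1854 genes (12.9%) and 3 members (8.11%), Irf1, Irf8 and Rsad2. Averaged over both groups, replicate 1 exceeded replicates 2 and 3 by a median of 0.13 on the log2 scale over the members, with 23 members higher and 14 lower and a range from -1.30 for Rsad2 to 0.94 for Irf8. The same difference was 2.85 over 5 tested neutrophil markers and 1.43 over 8 tubular injury genes, of which 5 and 7 differed between the numbers. Other lists gave -0.069 over 12 monocyte and macrophage markers, -0.22 over 9 endothelial and -1.20 over 9 proximal tubule markers, against -0.0051 over all genes. The highest and lowest library of a member differed by a median factor of 2.16, close to the 2.02 of all genes and far from the 50.1 of the neutrophil markers. These lists and members were not tested against each other.

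**Figure D4:**
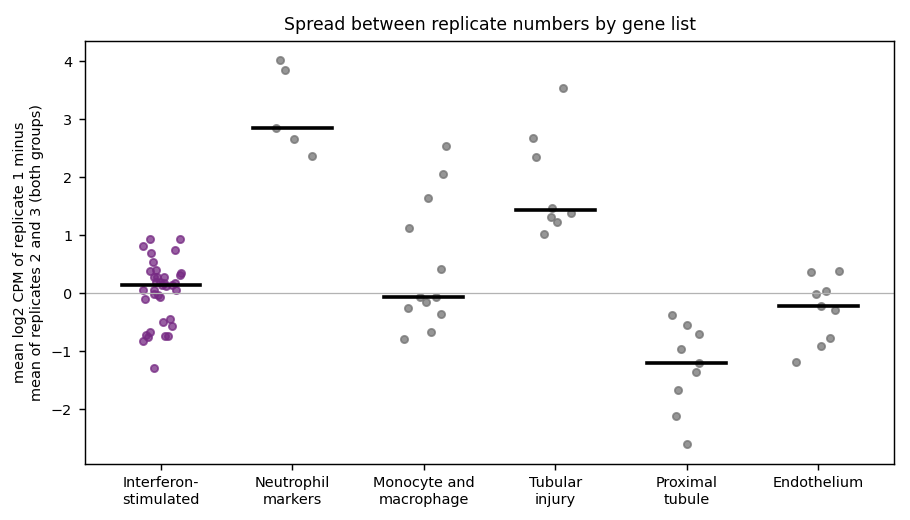
Mean log2 CPM of replicate 1 minus the mean of replicates 2 and 3, with both groups averaged, for each tested gene of 6 lists; bars are medians. The interferon-stimulated genes lie on both sides of 0, from -1.30 to 0.94 with a median of 0.13. The medians are 2.85 for neutrophil markers, 1.43 for tubular injury genes and -1.20 for proximal tubule markers. Those of the monocyte and macrophage markers (-0.069) and endothelial markers (-0.22) are nearer to 0.

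Members did not follow a single common profile across the 6 libraries. The median correlation of log2 CPM over the 666 pairs of members was 0.292, with 68% of pairs above 0. It was 0.738 within the OAS genes, 0.713 within the transcription factors, 0.63 within Parp9, Dtx3l and Parp14, and 0.56 within the sensors. Ifi35, Xaf1 and Rtp4 gave 0.419, the GTPases 0.319 and the IFIT genes 0.135. The median was -0.193 within the other antiviral effectors and -0.332 within the ISG15 system, the latter from only 3 pairs. No such median was taken over all tested genes. The 5 tested neutrophil markers gave 0.943. These correlations come from 6 libraries that also share depth and tissue composition, and they are a description.

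**Figure D5:**
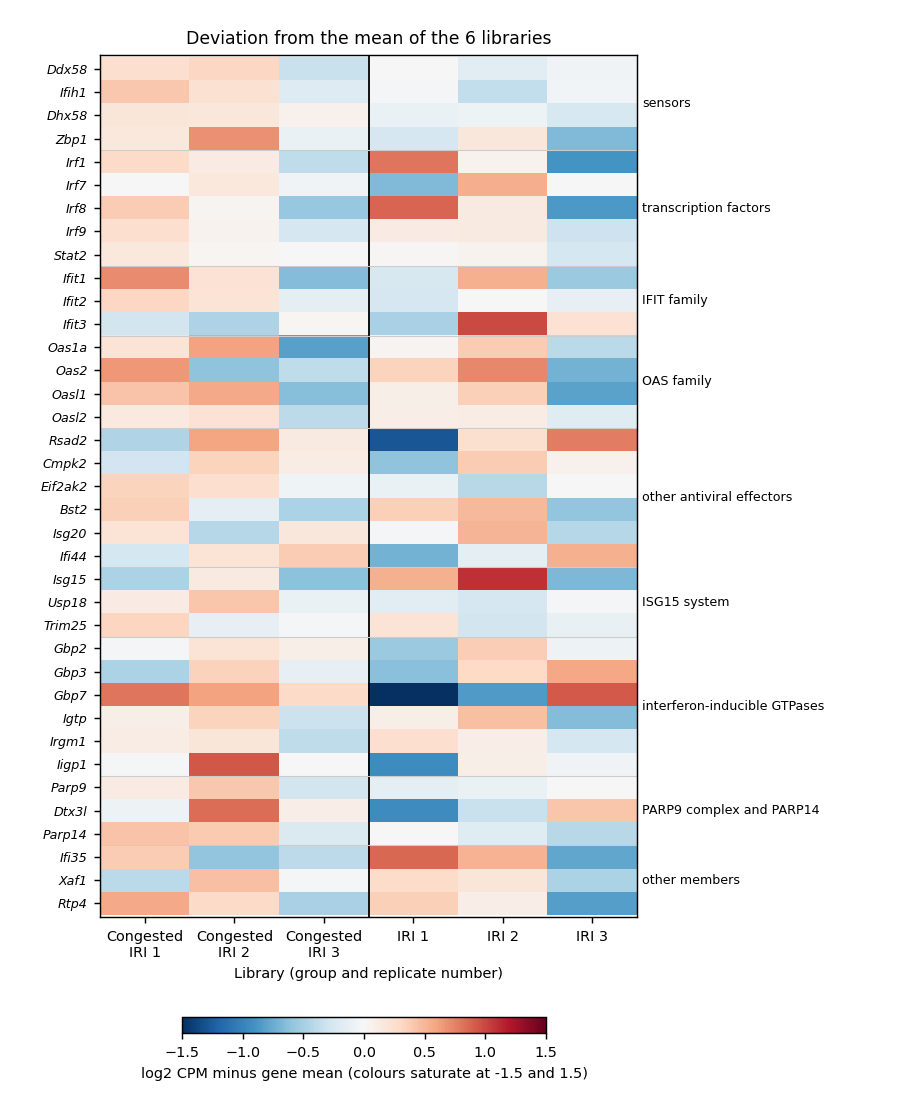
Deviation of each tested member's log2 CPM from its mean over the 6 libraries, red above and blue below, with congested IRI libraries left of the black line and IRI libraries right of it. IRI replicate 3 is blue for most transcription factors and OAS genes and red for Rsad2, Ifi44, Gbp3 and Gbp7.

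Leukocyte and injury markers varied between libraries beside the members. The summed level of 10 neutrophil markers was 226, 16.5 and 8.15 CPM in congested IRI replicates 1, 2 and 3, against 75.1, 9.03 and 5.11 CPM in IRI replicates 1, 2 and 3. The sum of 13 monocyte and macrophage markers was 340, 119 and 120 CPM in congested IRI libraries, against 114, 113 and 121 CPM in IRI libraries. Congested IRI replicate 1 stood apart in this sum, where Lyz2 alone gave 197 CPM. The single markers were divided, and Csf1r was highest in IRI replicate 3 and C1qa in IRI replicate 2. With both groups averaged, replicate 1 exceeded replicates 2 and 3 for 5 of the 12 tested markers and lay below them for 7. Tubular injury genes summed to 64938, 18347 and 11117 CPM in congested IRI libraries, against 47577, 16224 and 6426 CPM in IRI libraries. T and NK cell markers summed to at most 5.20 CPM and B cell markers to at most 4.52 CPM in any library. Within the former list Cd3d, Cd3e and Cd3g, which define T cells, were at 0.159 CPM or below in every library. Cd8a, the 1 tested gene of that list, was higher. It had 0.358, 2.56 and 1.25 CPM in congested IRI libraries, against 0.0793, 3.58 and 2.03 CPM in IRI libraries. Proximal tubule markers, which define most of the cortex, summed to between 4952 and 13371 CPM. The part of these cells in the members' levels was not tested. Without congested IRI replicate 1, 22 of the 37 members had an estimate above 0 and the median was 0.079. Leaving out 1 library does not test the part of any cell type.

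Upstream of the members, the interferons themselves were almost absent. Of 14 listed ligands, Ifnab, Ifnk, Ifnz and Ifng had a row, each with a single count in all 6 libraries together. Ifng had its 1 count in congested IRI replicate 3 and 0 counts in the other libraries. Ifnb1, also listed, had no row and so was not analysed here. No difference in ligands was detectable at this depth. All 5 tested receptor genes had estimates above 0 without the replicate block and 4 of 5 with it, with 0 called. Ifnar1, a chain of the type I receptor, had 64.9, 55.3 and 49.0 CPM in congested IRI libraries, against 43.2, 45.1 and 44.5 CPM in IRI libraries. Its groups did not overlap, as in 3.4% of all genes with congested IRI higher, and the log2 fold change was 0.35 ± 0.19 (adjusted p = 0.935, edgeR). Ifngr1, the ligand-binding chain of the interferon gamma receptor, had a log2 fold change of 0.22 ± 0.31.

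The kinases and sensing genes gave no call either. Of 5 tested JAK and STAT genes, 4 lay above 0, with Jak1 at 0.36 ± 0.23 and Tyk2 at 0.21 ± 0.19. Of 15 tested genes of upstream sensing and signalling, 9 lay above 0, with a median log2 fold change of 0.040. Tlr7, an endosomal sensor of single-stranded RNA, had 5.37, 2.05 and 1.72 CPM in congested IRI libraries, against 1.59, 1.11 and 1.499 CPM in IRI libraries. Cgas, the cytosolic DNA sensor, had 1.25, 1.17 and 0.940 CPM in congested IRI libraries, against 0.793, 0.341 and 0.793 CPM in IRI libraries. In both genes every congested IRI library lay above every IRI library, as in 3.4% of all genes, and the log2 fold changes were 1.11 ± 0.51 for Tlr7 and 0.79 ± 0.46 for Cgas, each at an adjusted p of 0.935 by edgeR's quasi-likelihood test.

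Of 10 tested negative regulators, 7 lay above 0. Adar, whose product edits double-stranded RNA and so hides it from MDA5, had 18.5, 20.7 and 18.8 CPM in congested IRI libraries, against 9.20, 14.3 and 16.3 CPM in IRI libraries. Its groups did not overlap either, against the same 3.4% of all genes, and the log2 fold change was 0.54 ± 0.26 (adjusted p = 0.935, edgeR). Samhd1, a dNTP hydrolase, had a log2 fold change of 0.25 ± 0.21.

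A longer list held 69 further interferon-stimulated genes. Of its 58 tested genes 39 were above 0 and 0 were called, with a median log2 fold change of 0.15. Its groups did not overlap for 1 of the 58, which was lower in congested IRI libraries, against 3.1% of all genes. In the other direction 0 of the 58 did so, against 3.4% of all genes. The smallest p in it belonged to Ifi207 and Ifi211, of the interferon-inducible PYHIN family, at 1.64 ± 0.75 and 1.204 ± 0.56 on the log2 scale. Ifi207 had 4.48, 1.17 and 0.705 CPM in congested IRI libraries, against 0.952, 0.596 and 0.441 CPM in IRI libraries, with congested IRI replicate 1 far above the rest. Tlr7 and Ifi207 were both highest in that library, where the sum of the monocyte and macrophage markers was highest too. Not every marker of that list was highest there, Csf1r and C1qa among them, and the part of those cells was not tested. Among 8 interferon-induced chemokines and checkpoint genes, 4 were tested, all 4 lay above 0 and 0 were called, with a median log2 fold change of 0.81. Cxcl10, a chemokine for activated T cells, had 8.24, 8.77 and 6.03 CPM in congested IRI libraries, against 2.30, 7.41 and 1.94 CPM in IRI libraries. IRI replicate 2 lay among the congested IRI libraries, and the log2 fold change was 0.98 ± 0.53 (adjusted p = 0.935, edgeR). Ciita, the master regulator of MHC class II genes, had a log2 fold change of 0.64 ± 0.39.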

How the data were processed

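Stranded poly(A) RNA libraries from kidney cortex were compared between congested IRI and IRI kidneys, 3 each. The authors deposited 1 table of whole-number read counts per gene, not normalized. Per the submitters' processing notes, STAR 2.7.10a, Subread and featureCounts were used with GRCm38. For the annotation, strand setting and multimapping reads, the entry is "not given in the sources used here".

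The members, lists and naming rule were chosen with earlier results of these data known. The main test was edgeR 4.0.16, run in R 4.3.3 (TMM factors, at least 10 counts in at least 3 libraries, robust quasi-likelihood F test, group as the only term) with Benjamini-Hochberg adjustment over 14398 genes. SE is the log2 fold change divided by the square root of F. Log2 CPM used a prior count of 2. Exon lengths and positions came from the GENCODE annotation of GRCm38, and promoter sequences from RefSeq (GRCm38.p6). Alternatives were other scalings and filters, DESeq2 1.42.0, limma-voom (limma 3.58.1), the replicate block and each library left out.

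Values per library are given for members called, those of each role class with the highest CPM or the smallest p without or with the block, those whose groups do not overlap, and Ifng. Ifnb1, which the rule also names, had no row and so was not analysed here. A further gene that the rule names is not reported here. Of each other list the 2 genes with the smallest p are named.

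The labels do not say what a replicate number shares. For libraries numbered 1, 2 and 3, the correlation of deviations from the group mean was 0.719, 0.342 and 0.427 over all genes, so the numbers were taken to pair the libraries. Over the 37 tested members it was 0.619, -0.0189 and 0.411. The crossed correlations of numbers 2 and 3 were 0.395 and 0.242, so their matching rests on the numbers. The block lowered the biological coefficient of variation to 0.211, against 0.338 in the main fit. All replicate pairs of a group differed beyond sampling noise (chi-square divided by its degrees of freedom, 18.7 to 192).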

Additional observations from a re-analysis of the deposited data

How the results depend on the processing

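Under every alternative run, 0 members were called between congested IRI and IRI kidneys. Over all genes the count was also 0, except for DESeq2 with the replicate block, which called 8 genes. In edgeR's test the replicate block changed no call. Of 357 alternative values of the 17 members named by rule, 336 kept their direction and their side of the threshold. Oasl2 (0.00096) turned to -0.01132 with RLE factors, -0.005914 with upper-quartile factors, -0.001539 with a filter on CPM, -0.01171 with DESeq2, -0.02107 with limma-voom, -0.01395 with the replicate block, -0.02525 with DESeq2 and the block and -0.008459 with limma-voom and the block. Irgm1 turned to 0.05259 with total counts only, which also moved the median of all genes to 0.0951 (60.6% of genes above 0) and that of the members to 0.221 (30 above and 7 below 0). Leaving out libraries gave ranges of -0.5559 to 0.2839 for Irf8, -0.1926 to 0.09829 for Irgm1, -0.01881 to 0.5647 for Oasl1, -0.1166 to 0.1741 for Oasl2 and -0.02509 to 0.2709 for Trim25. The members' median ran from 0.0252 (without congested IRI replicate 2) to 0.201 (without IRI replicate 2), and the members above 0 from 19 (without IRI replicate 3) to 30 (without congested IRI replicate 3). Without IRI replicate 3, 4 of 37 members and 2704 of 14398 genes had an unadjusted p under 0.05 by edgeR, with 0 called. Between replicate numbers DESeq2 called 1854 genes (12.9%) and 3 members (8.11%). The cause of these shifts was not tested. With 3 libraries a group, SE of 0.197 to 0.619 on the log2 scale limit what could be detected, and members near 1 CPM are limited by counts.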
